A study of Mus musculus with 9 samples.

Results

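Genes that make serine, glycine, one-carbon units and related amino acids, or that import cystine, were followed in mouse neutrophils kept alone or with tumour cells. The 10 genes are Phgdh, Psat1, Psph, Shmt1, Shmt2, Mthfd1l, Mthfd2, Asns, Bcat1 and Slc7a11. They were picked by symbol from the 54532 Ensembl identifiers of the count table, with their differences between these groups already known. Their values, fold changes and calls are therefore given as a description, and none of them is read as a test. Wild type C57/B6 mice gave the bone marrow neutrophils, and all cultures were kept for 12 h with 0.5% fetal bovine serum. DMEM is named as the medium for the co-cultures, and no basal medium is named for the neutrophils alone. The 3 groups were neutrophils alone, neutrophils from co-culture with cells named PyMT-M, and neutrophils from co-culture with cells named PyMT-N, with 3 libraries each. PyMT is the polyoma middle T antigen, whose expression in the mammary gland gives rise to mouse mammary carcinomas, and the sources used here do not say what M and N stand for. Neutrophils were taken back from either co-culture with a fluorescence-activated cell sorter. Whether those kept alone also passed the sorter is not in the labels, so sorting and co-culture cannot be told apart. The labels number the libraries of a group as biological replicates without tying them to mice or cultures. The column names repeat the same 3 numbers in all 3 groups, in step with these replicate numbers. What those numbers stand for is not given, so whether same-numbered libraries share a mouse or batch is not known. The main model did not pair the libraries, and p-values here measure the spread between them.

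Serine is made from the glycolytic intermediate 3-phosphoglycerate by the successive action of PHGDH, PSAT1 and PSPH. Serine hydroxymethyltransferases then split serine into glycine and a one-carbon unit carried by folate, SHMT1 in the cytosol and SHMT2 in mitochondria. MTHFD2 and MTHFD1L pass the mitochondrial unit on to formate, which the cytosol uses to build purines, thymidylate and methionine. ASNS makes asparagine from aspartate, BCAT1 is the cytosolic transaminase of branched-chain amino acids, and SLC7A11 is the light chain of the cystine and glutamate exchanger system xc-, which supplies cysteine for glutathione. Many of these genes are known targets of ATF4, the transcription factor of the amino acid and integrated stress response. Mature neutrophils do not divide and are known for reliance on glycolysis, whereas tumour cells often express this pathway at a high level.

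The promoter windows of Asns and Slc7a11 hold the letters of the composite C/EBP-ATF response element, through which ATF4 is known to act. These sequences are shown because no window of the other 8 genes held a match. Sequence outside the windows was not searched, so the other genes may carry the element elsewhere. RefSeq promoters of build GRCm38.p6, from 250 bases before to 50 bases after the start site, were matched for 10 of 10 genes. The letters TGATGNAA, searched on both strands, stood in 3.97% of all 32851 such windows. They occurred once in Asns, at 23 bases before the start, and at 2 places in Slc7a11, at 66 and 47 bases before it. The capitals below mark each match, the second one of Slc7a11 being on the opposite strand, and both genes lie on the minus strand, at chr6:7693185-7693272 and chr3:50443613-50443719.
Asns: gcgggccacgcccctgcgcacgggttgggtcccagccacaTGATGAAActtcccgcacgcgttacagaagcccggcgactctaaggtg
Slc7a11: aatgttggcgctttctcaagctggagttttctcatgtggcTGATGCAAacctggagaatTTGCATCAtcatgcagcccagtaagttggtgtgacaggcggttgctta
The antioxidant response element, searched as TGACNNNGC, stood in the windows of Phgdh, Psph and Asns and in 12.4% of all windows. The E-box CACGTG stood in none of the 10 genes' windows and in 7.15% of all windows. Counted by gene rather than by window, the shares were 4.51%, 14% and 8.09%, in the order the motifs are named. Matches of different motifs did not overlap. A match describes letters and not binding, and the part of these motifs in the expression of the 10 genes was not tested.

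Library totals ran from 1641049 to 4524563 counts. Replicate 3 of the neutrophils alone was the shallowest library, had the fewest genes with a count (11814, against up to 17008) and had 12.7% of its counts in the mitochondrial rRNA gene mt-Rnr2. That share was 5.92% and 7.39% in the other libraries alone, 6.12% to 11.1% with PyMT-M and 2.65% to 4.0% with PyMT-N, so the PyMT-N libraries were below all others, and its part in the results was not tested. All 12 neutrophil markers had counts in every group. Their summed level was 26281 to 38209 CPM (counts scaled to a fixed library total) alone, 17719 to 22642 in the PyMT-M co-cultures and 17094 to 20654 in the PyMT-N co-cultures. Sums of other marker lists also differed between the groups. The sum of 20 pan-leukocyte markers, which neutrophils share with other leukocytes, was 21573 to 23224 CPM alone, 8999 to 12701 with PyMT-M and 11753 to 14165 in the PyMT-N group. The sum of 20 epithelial markers was 57.3 to 107 CPM alone, 137 to 207 with PyMT-M and 2478 to 3547 in the PyMT-N group, where 1 of the 20, Krt5, was at 0. In neutrophils alone 8 were at 0, including Epcam and Krt19, and 6 were at 0 with PyMT-M. The sum of 20 mesenchymal markers was 1277 to 1486 CPM alone, 4100 to 5057 with PyMT-M and 2499 to 2962 in the PyMT-N group, with 4, 2 and 3 of them at 0. Its genes did not all move together. Of 17 tested, 5 were called higher and 10 lower with PyMT-N than with PyMT-M (edgeR, adjusted p under 0.05). These were 29.4% and 58.8% of the list, against 19.1% and 15.5% of all genes. The sum of 15 proliferation markers was 305 to 342 CPM alone, 1914 to 2316 with PyMT-M and 1054 to 1343 in the PyMT-N group. The order alone, PyMT-N, PyMT-M in the last 2 sums was also that of 8 of the 10 genes described here, and the part of these cells or states in the results was not tested. In bulk RNA, a different number of cells of a type and a different amount of RNA per cell cannot be told apart.

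**Figure D1:**
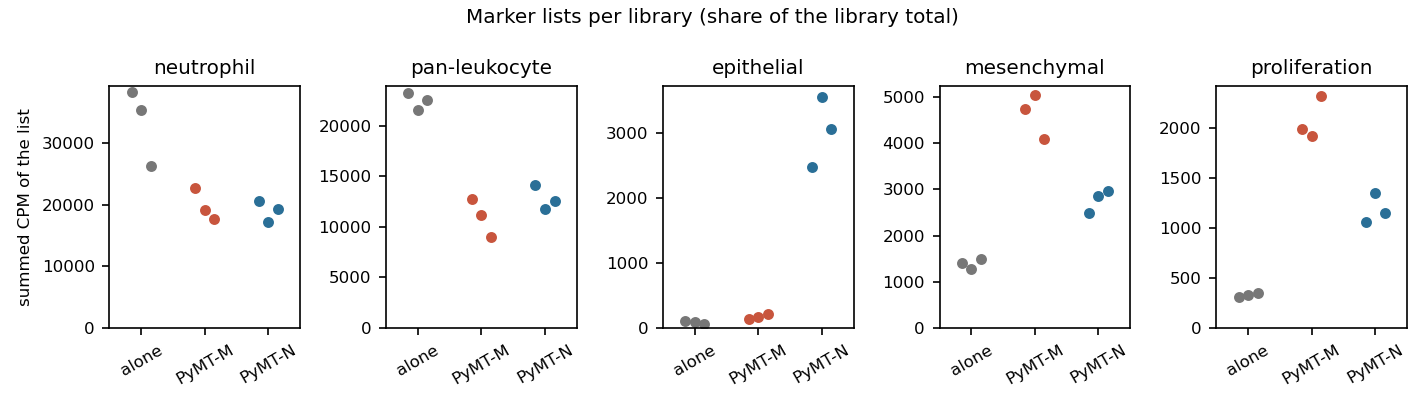
Summed CPM (share of the library total, linear axes from 0) of 5 marker lists, each point being 1 of the 9 libraries. The epithelial sum is 2478 CPM or more in the 3 PyMT-N libraries and at most 207 CPM in the other 6, and the mesenchymal and proliferation sums are lowest alone and highest with PyMT-M.

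The 3 enzymes of serine synthesis were low in neutrophils kept alone and higher in every co-culture library, most of all with PyMT-M. Levels are given as CPM normalised by TMM, the trimmed mean of M values, and fold changes as log2 ± SE from the edgeR model. Phgdh (chr3:98313170-98339990, minus strand, ENSMUSG00000053398), the entry enzyme, stood at 5.79, 6.35 and 12.8 normalised CPM alone, 70.3, 71.2 and 71.6 with PyMT-M, and 39.0, 43.0 and 42.2 with PyMT-N. The 3 groups did not overlap, and the PyMT-M libraries were nearly equal to each other. The log2 difference from alone was 2.43 ± 0.32 with PyMT-N and 3.21 ± 0.31 with PyMT-M, and PyMT-N was -0.78 ± 0.22 from PyMT-M. Psat1 (chr19:15904678-15947337, minus strand, ENSMUSG00000024640), the transaminase of the second step, stood at 4.46, 8.22 and 3.02 normalised CPM alone, 407, 423 and 327 with PyMT-M, and 144, 208 and 209 with PyMT-N. These groups did not overlap either, and the span between them was far wider than for Phgdh. Psat1 was 32.7-fold higher with PyMT-N than alone and 67.4-fold higher with PyMT-M, log2 differences of 5.03 ± 0.32 and 6.07 ± 0.31. The difference of PyMT-N from PyMT-M was -1.04 ± 0.20. Psph (chr5:129765558-129787449, minus strand, ENSMUSG00000029446), the phosphatase that releases serine, stood at 6.24, 7.85 and 8.30 normalised CPM alone, 183, 160 and 159 with PyMT-M, and 90.1, 116 and 118 with PyMT-N. Again every library of one group was apart from those of the others. The Psph differences were 3.87 ± 0.28 with PyMT-N, 4.50 ± 0.28 with PyMT-M and -0.63 ± 0.19 between PyMT-N and PyMT-M. Exons of Psph overlap by 452 bases those of Cct6a on the opposite strand, a chaperonin subunit whose level was 34.4 ± 1.28 alone, 245 ± 33.5 with PyMT-M and 152 ± 6.75 in the PyMT-N group (normalised CPM, SD, n = 3). The sources used here do not say whether the counting used strand, so reads in that stretch cannot be assigned to Psph or Cct6a.

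The mitochondrial serine hydroxymethyltransferase differed between the groups much more than the cytosolic one. Shmt2 (chr10:127517123-127522444, minus strand, ENSMUSG00000025403) stood at 28.1, 22.4 and 12.1 normalised CPM alone, 304, 362 and 306 with PyMT-M, and 146, 193 and 183 with PyMT-N. Its groups did not overlap. The Shmt2 log2 difference from alone was 2.99 ± 0.25 with PyMT-N and 3.89 ± 0.25 with PyMT-M, and PyMT-N was -0.90 ± 0.20 from PyMT-M. Shmt1 (chr11:60788104-60811718, minus strand, ENSMUSG00000020534) stood at 12.9, 22.4 and 15.8 normalised CPM alone, 30.1, 41.0 and 29.5 with PyMT-M, and 30.1, 22.3 and 25.2 with PyMT-N. The PyMT-N libraries of Shmt1 overlapped both other groups, and those of PyMT-M lay above all libraries kept alone. Its differences were 0.57 ± 0.32 with PyMT-N, 0.95 ± 0.31 with PyMT-M and -0.39 ± 0.26 between PyMT-N and PyMT-M, the smallest of the 10 genes in all 3 comparisons. As raw counts, Shmt2 was 2.17, 1 and 0.762 times Shmt1 in the 3 libraries alone, 10.1, 8.81 and 10.3 times with PyMT-M, and 4.86, 8.63 and 7.25 times with PyMT-N, so that the ratio was higher in every co-culture library than in any library alone. Exons of Shmt1 overlap by 184 bases those of Smcr8 on the opposite strand, whose level was 82.0 ± 22.0 alone, 49.6 ± 5.94 with PyMT-M and 49.8 ± 0.614 in the PyMT-N group (normalised CPM, SD, n = 3). Exons of Shmt2 overlap by 32 bases those of Ndufa4l2, which had too few counts to be tested.

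The mitochondrial folate enzymes that act after SHMT2 were also higher in the co-cultures than alone. Mthfd2 (chr6:83305691-83325908, minus strand, ENSMUSG00000005667), the dehydrogenase and cyclohydrolase known for its expression in embryos and tumours, stood at 29.9, 47.1 and 69.4 normalised CPM alone, 112, 128 and 125 with PyMT-M, and 162, 196 and 195 with PyMT-N. It was the gene of the 10 whose 3 groups did not overlap and were highest with PyMT-N. The Mthfd2 differences were 1.97 ± 0.25 with PyMT-N, 1.37 ± 0.25 with PyMT-M and 0.60 ± 0.22 between PyMT-N and PyMT-M. The last of these was 0.39 when libraries were scaled to their totals and 0.16 when they were scaled to equal pan-leukocyte sums. Mthfd1l (chr10:3973118-4167081, plus strand, ENSMUSG00000040675), the synthetase that releases formate, stood at 3.56, 11.2 and 18.9 normalised CPM alone, 116, 116 and 133 with PyMT-M, and 47.4, 55.9 and 62.8 with PyMT-N. Its 3 groups did not overlap, and it was higher with PyMT-M than with PyMT-N. The Mthfd1l differences were 2.43 ± 0.36 with PyMT-N, 3.56 ± 0.34 with PyMT-M and -1.13 ± 0.25 between PyMT-N and PyMT-M. Mthfd1, the cytosolic enzyme that uses formate, had the same order, at 9.36 ± 4.43 alone, 44.2 ± 9.42 with PyMT-N and 95.8 ± 10.7 with PyMT-M (normalised CPM, SD, n = 3). As raw counts, Mthfd1l was 0.800 to 1.79 times Mthfd1 alone, 1.24 to 1.35 times with PyMT-M and 0.965 to 1.68 times in the PyMT-N group, ranges that overlap. Mthfd2l, the related mitochondrial enzyme, was scarce, at 1.14 ± 1.38 alone, 7.69 ± 2.96 with PyMT-M and 12.3 ± 5.98 in the PyMT-N group.

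Asns and Bcat1 were both lowest alone and highest with PyMT-M, and Bcat1 showed the widest span of the 10 genes. Asns (chr6:7675169-7693254, minus strand, ENSMUSG00000029752) stood at 20.5, 20.2 and 9.81 normalised CPM alone, 195, 203 and 184 with PyMT-M, and 113, 120 and 149 with PyMT-N. Its 3 groups did not overlap. The Asns differences were 2.84 ± 0.26 with PyMT-N, 3.45 ± 0.26 with PyMT-M and -0.61 ± 0.20 between PyMT-N and PyMT-M. Bcat1 (chr6:144993835-145076184, minus strand, ENSMUSG00000030268) had 3 counts in 1 library kept alone and 0 in the others. It stood at 383, 452 and 294 normalised CPM with PyMT-M and at 18.7, 24.5 and 14.4 with PyMT-N. From these counts Bcat1 was 39.1-fold higher with PyMT-N than alone, with a 95% counting interval of 13.2 to 191, and 801-fold higher with PyMT-M, with an interval of 274 to 3886. These intervals cover counting error only. Between the co-cultures the Bcat1 difference was -4.31 ± 0.29, the largest of the 10 genes, and PyMT-N libraries were far below all PyMT-M libraries. Bcat2, the mitochondrial enzyme of the same reaction, had a mean of 26.3 ± 11.3 alone, 45.5 ± 10.2 with PyMT-M and 17.4 ± 2.11 in the PyMT-N group (normalised CPM, SD, n = 3). As raw counts, Bcat1 was 0.0833, 0 and 0 times Bcat2 alone, 7.24, 13.4 and 5.90 times with PyMT-M, and 0.942, 1.53 and 0.882 times with PyMT-N. Exons of Bcat1 overlap by 337 bases those of the predicted gene Gm26666 on the opposite strand, which had too few counts to be tested.

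Slc7a11 was the gene of the 10 that was abundant in neutrophils kept alone and lower in the PyMT-M co-cultures. Slc7a11 (chr3:49892526-50443614, minus strand, ENSMUSG00000027737) stood at 2657, 3004 and 1244 normalised CPM alone, 546, 589 and 390 with PyMT-M, and 1291, 1119 and 1181 with PyMT-N. All PyMT-M libraries were below every other library. Replicate 3 of the neutrophils alone, the shallow library, lay inside the PyMT-N range, so alone and PyMT-N overlapped. The Slc7a11 differences were -0.95 ± 0.26 with PyMT-N, -2.18 ± 0.27 with PyMT-M and 1.23 ± 0.26 between PyMT-N and PyMT-M. Without replicate 3 of the neutrophils alone the first 2 of these were -1.24 and -2.47. When libraries were scaled so that the sum of 20 pan-leukocyte genes was equal, the PyMT-N difference was 0.14 and the PyMT-M difference was -0.65, so the sign of the former depends on the scaling. That scaling raised the median of all genes by 1.09 with PyMT-N and by 1.50 with PyMT-M against alone. It raised the differences of the other 9 genes as well, for example those of Psat1 to 6.14 and 7.60 and those of Shmt1 to 1.65 and 2.49. Slc3a2, the heavy chain that carries SLC7A11 to the membrane, had means of 184 ± 9.04 alone, 156 ± 19.8 with PyMT-M and 248 ± 20.3 in the PyMT-N group (normalised CPM, SD, n = 3), a much narrower span. As raw counts, Slc7a11 was 15.2, 15.6 and 6.79 times Slc3a2 alone, 3.41, 3.40 and 2.90 times with PyMT-M, and 5.72, 4.47 and 4.44 times with PyMT-N, higher in every library alone than in any co-culture library. This ratio within a library does not depend on scaling, but it can differ with the mix of cells in a library, whose part was not tested.

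**Figure D2:**
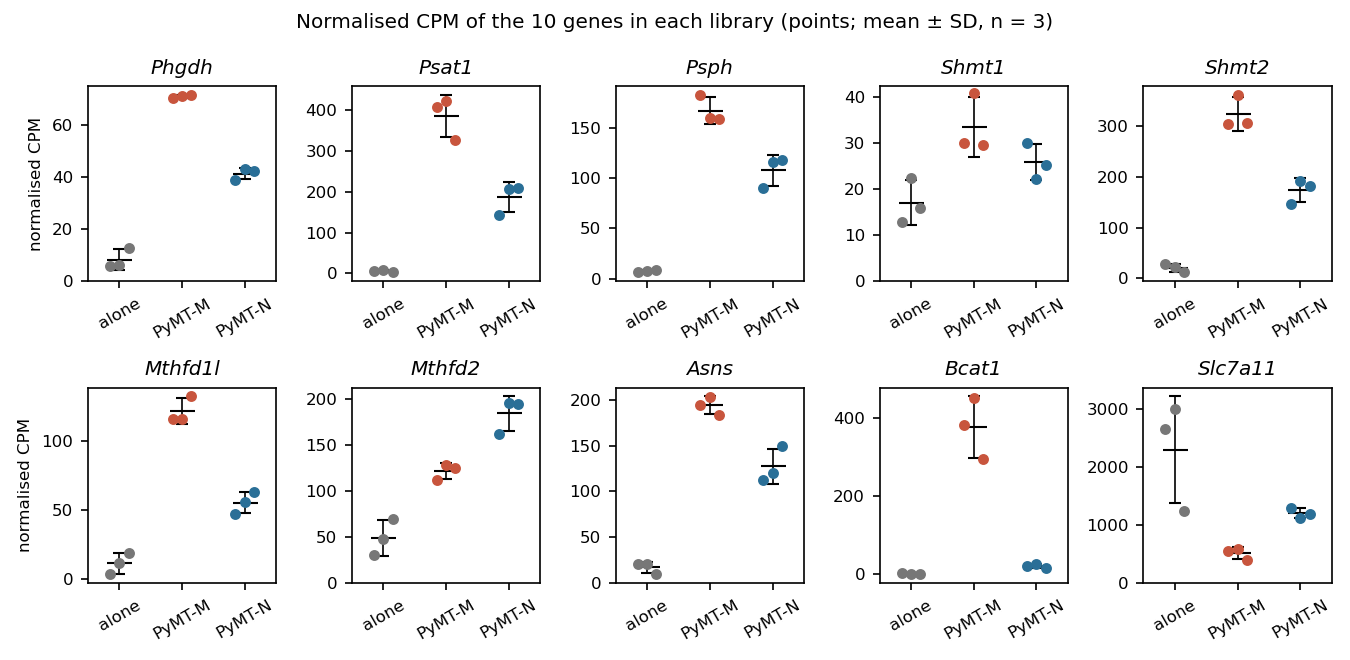
Normalised CPM (linear axes, a separate range per gene) of the 10 genes, with each of the 9 libraries as a point and bars for the mean ± SD (n = 3). Slc7a11 is highest in 2 of the 3 libraries kept alone, Mthfd2 is highest with PyMT-N, and the other 8 have their highest mean with PyMT-M.

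The calls in this paragraph describe genes chosen with these contrasts known and are not a test of them. With PyMT-N against alone, 8 of the 10 genes passed the threshold in the higher direction and 1 in the lower. Their median log2 difference was 2.64, against 0.12 over all 12012 genes tested. In that comparison 29.4% of all genes were called higher and 23.6% lower (adjusted p under 0.05, edgeR quasi-likelihood test). With PyMT-M against alone, 9 were higher and 1 lower, with a median of 3.51 against -0.03, where 28.2% of all genes were called higher and 27.9% lower. With PyMT-N against PyMT-M, 2 were higher and 7 lower, with a median of -0.70 against -0.02, where 19.1% of all genes were called higher and 15.5% lower. The groups did not overlap for 8 genes higher and 0 lower with PyMT-N against alone (33.4% and 23.3% of all genes), for 9 higher and 1 lower with PyMT-M against alone (31.4% and 26.5%), and for 2 higher and 7 lower with PyMT-N against PyMT-M (27.3% and 25.5%). All 10 genes passed the low-count filter. Some calls depended on the setting. Between the co-cultures, that of Mthfd2 was lost with DESeq2, with each of 4 other scalings, with either of 2 other filters and without any of the 6 co-culture libraries. That of Asns was lost without replicate 1 or 2 of PyMT-M or of PyMT-N, that of Psph without replicate 1 of either co-culture, and that of Phgdh without replicate 1 of PyMT-N. Shmt1 with PyMT-M against alone lost its call without replicate 1 alone or replicate 2 of PyMT-M, and Slc7a11 with PyMT-N against alone lost it with pan-leukocyte scaling. Because the choice of the genes used these contrasts, nothing is read from the counts, and both comparisons with the neutrophils alone share the same 3 libraries. Of the 30 differences, all but that of Slc7a11 between PyMT-N and alone kept their sign under every scaling, filter and left-out library tried.

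**Figure D3:**
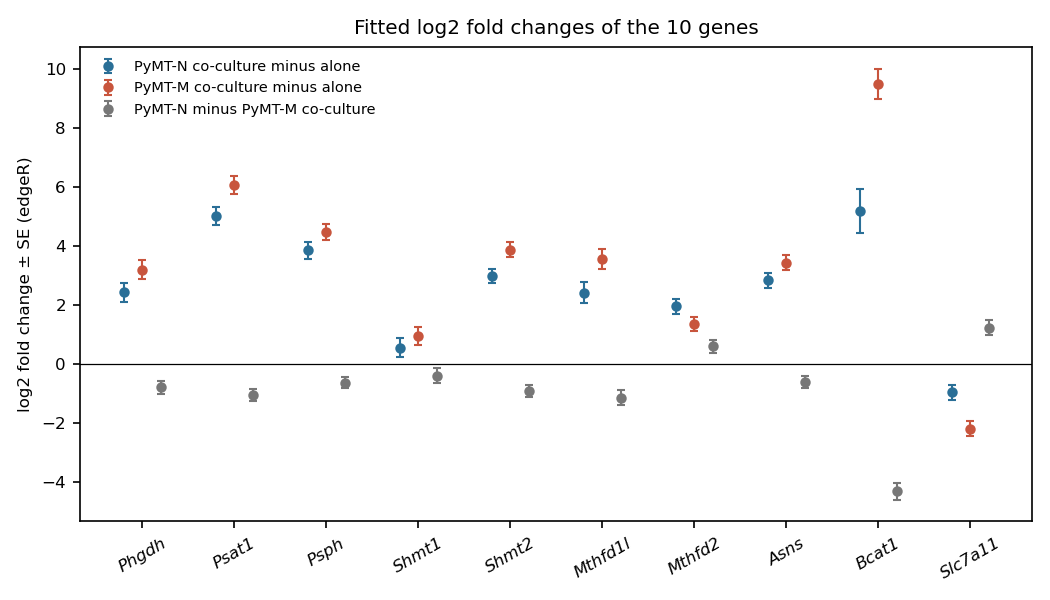
Fitted log2 fold changes ± SE of the 10 genes in the 3 comparisons, with 0 as the line of no difference. Slc7a11 is below 0 in both comparisons with neutrophils alone, Mthfd2 and Slc7a11 are above 0 between PyMT-N and PyMT-M, and the fitted values of Bcat1 against alone depend on the prior count because its libraries alone hold 3, 0 and 0 counts.

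Per kilobase of exon, the order of the 10 genes changed from group to group. In neutrophils alone, Slc7a11 led with 165 ± 66.9 normalised CPM per kb, followed by Mthfd2 with 14.0 ± 5.68, Shmt2 with 6.71 ± 2.61, Asns with 6.15 ± 2.22 and Shmt1 with 4.39 ± 1.25 (SD, n = 3). Shmt2, Asns and Shmt1 lay within their spread of each other. The lowest were Phgdh at 3.35 ± 1.57, Mthfd1l at 2.53 ± 1.72, Psph at 1.72 ± 0.250, Psat1 at 1.23 ± 0.632 and Bcat1 at 0.0478 ± 0.0828 normalised CPM per kb, each of the first 4 within the spread of its neighbour. With PyMT-M, Shmt2 at 104 ± 10.5 and Psat1 at 90.7 ± 12.1 led and were within their spread of each other, ahead of Asns at 70.9 ± 3.63. Bcat1 at 40.3 ± 8.52, Psph at 38.6 ± 3.14, Slc7a11 at 36.5 ± 7.52 and Mthfd2 at 34.9 ± 2.47 followed without differing beyond their spread, and then Phgdh at 28.6 ± 0.269 and Mthfd1l at 27.5 ± 2.14. Shmt1 was last with PyMT-M, at 8.64 ± 1.67 normalised CPM per kb. With PyMT-N, Slc7a11 led again at 86.0 ± 6.24, then Shmt2 at 55.9 ± 7.81, Mthfd2 at 52.9 ± 5.57, Asns at 46.6 ± 7.12 and Psat1 at 44.0 ± 8.79, neighbours that lay within their spread of each other after Slc7a11. Psph at 24.9 ± 3.56, Phgdh at 16.7 ± 0.839, Mthfd1l at 12.5 ± 1.75, Shmt1 at 6.66 ± 1.02 and Bcat1 at 2.06 ± 0.544 completed the order with PyMT-N. Psat1 and Bcat1, the bottom pair alone, were thus among the upper 4 with PyMT-M.

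Within the serine pathway the balance of enzymes also differed. As raw counts, Psat1 was 0.769, 1.29 and 0.235 times Phgdh in the 3 libraries alone, 5.79, 5.95 and 4.57 times with PyMT-M, and 3.68, 4.83 and 4.96 times with PyMT-N. Every co-culture library was above every library alone, and both co-cultures overlapped.

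Genes outside the list whose log2 normalised CPM followed a member most closely over the 9 libraries were found among 6205 genes of sufficient level, as a description. Since the 9 libraries form 3 well separated groups, a high Pearson r here mostly reflects the order of the 3 group means. Psat1 was most like Tcp1 (r = 0.997), Maged1 (0.997) and Serpinh1 (0.995), the last a collagen chaperone at 0.125 normalised CPM alone, 513 with PyMT-M and 141 in the PyMT-N group. Psph was most like Aebp1, Selenof and Slc7a1 (each 0.996), Phgdh like Tsnax (0.996), Strap (0.996) and Cct3 (0.994), and Shmt2 like Ipo8 (0.997), Erh (0.996) and Zdhhc2 (0.996). Asns was closest to another member, Shmt2 (0.996), and then to Mrps30 (0.996) and Eif2s1 (0.994), a subunit of the initiation factor eIF2. Mthfd1l was closest to Nufip1 (0.995), Lss (0.991) and Nolc1 (0.990), Bcat1 to Ash2l (0.993), Camk2d (0.990) and Cyb5b (0.989), and Shmt1 to Nvl (0.983), Eif4a-ps4 (0.946) and Ddx27 (0.939). Mthfd2 was closest to Pls3 (0.994), Akr1b3 (0.990) and Axl (0.987), the last a receptor tyrosine kinase at 24.0 normalised CPM alone, 186 with PyMT-M and 423 in the PyMT-N group. Slc7a11 was closest to Rffl (0.991), Smap2 (0.986) and Pxn (0.984).

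The wider pathway was read from 6 lists written by role, of 142 genes that leave the members out, of which 109 had enough counts to be tested. With PyMT-N against alone, 48 of the 109 rose and 20 fell, 62.4% called against 53.0% of all genes, with a median log2 difference of 0.61 against 0.12. With PyMT-M against alone, 55 rose and 17 fell, 66.1% against 56.1% of all genes, with a median of 0.92 against -0.03. With PyMT-N against PyMT-M, 17 were higher and 33 lower, 45.9% against 34.6% of all genes, with a median of -0.27 against -0.02. Pan-leukocyte scaling turned the first 2 splits into 81 higher and 2 lower, and 86 higher and 1 lower, and the last into 10 higher and 55 lower. Without replicate 3 of the neutrophils alone the splits were 58 and 18, 59 and 20, and 22 and 42.

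Folate genes outside the 10 were mostly higher in the co-cultures where they passed the test. Of 17 tested genes of 27, 9 were called with PyMT-N against alone, each of them higher (median 1.13), and 12 rose and 1 fell with PyMT-M (median 1.70). With PyMT-N, 52.9% of the list was called against 53.0% of all genes, so the share called was at the background, while the share higher was 52.9% against 29.4%. With PyMT-M, 70.6% of the list was higher against 28.2% of all genes. Here and below, where a gene has a pair of values against alone, the first is with PyMT-N and the second with PyMT-M. Slc19a1, the reduced folate carrier, rose by 3.77 ± 0.63 (adjusted p = 7.99e-05) with PyMT-N and by 5.31 ± 0.53 (adjusted p = 5.64e-07) with PyMT-M. Fpgs, which traps folates in the cell as polyglutamates, rose by 3.74 ± 0.46 (adjusted p = 5.84e-06) and 4.68 ± 0.42 (adjusted p = 5.24e-07). Mthfd1 rose by 2.23 ± 0.35 (adjusted p = 9.17e-05) and 3.34 ± 0.34 (adjusted p = 1.79e-06). Ggh, which removes the polyglutamate tail, fell by 1.40 ± 0.26 with PyMT-M (adjusted p = 3.21e-04), although it was at 0.16 with pan-leukocyte scaling. Between the co-cultures 2 folate genes were higher and 7 lower with PyMT-N (median -0.57). They were 11.8% and 41.2% of the list, against 19.1% and 15.5% of all genes. Aldh1l2, the mitochondrial formyltetrahydrofolate dehydrogenase, had 0 counts alone, a mean of 37.2 ± 11.7 normalised CPM with PyMT-M and 2.51 ± 0.546 in the PyMT-N group. It was at least 79.3-fold higher with PyMT-M than alone and at least 5.31-fold higher with PyMT-N, taking 3 counts over the group as the floor, and PyMT-N was -3.86 ± 0.42 from PyMT-M (adjusted p = 1.01e-05). Slc19a1 and Mthfd1 were lower with PyMT-N by log2 values of -1.54 ± 0.28 (adjusted p = 2.76e-04) and -1.11 ± 0.25 (adjusted p = 0.00266), and Ggh was higher by 1.91 ± 0.24 (adjusted p = 2.24e-05).

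The genes of nucleotide synthesis, where one-carbon units are used, were also called mostly higher against alone. All 20 nucleotide synthesis genes were tested, of which 13 rose and 4 fell with PyMT-N against alone (median 1.34), and 16 rose and 2 fell with PyMT-M (median 2.45). The shares higher were 65% and 80%, against 29.4% and 28.2% of all genes, and the shares lower were 20% and 10%, against 23.6% and 27.9%. Rrm2, a subunit of ribonucleotide reductase, rose by 2.43 ± 0.27 (adjusted p = 3.24e-06) and 2.79 ± 0.27 (adjusted p = 1.26e-06). Ppat, the first enzyme of purine synthesis, rose by 2.74 ± 0.37 (adjusted p = 1.75e-05) and 3.80 ± 0.34 (adjusted p = 5.96e-07). Paics rose by 1.98 ± 0.23 with PyMT-N (adjusted p = 4.25e-06), and Atic, which like PAICS acts in purine synthesis, rose by 3.14 ± 0.30 with PyMT-M (adjusted p = 1.27e-06). Adss fell by 1.09 ± 0.21 with PyMT-N (adjusted p = 4.74e-04) and Ctps2 fell by 1.26 ± 0.23 with PyMT-M (adjusted p = 2.72e-04), but with pan-leukocyte scaling these were 0.02 and 0.27. Between the co-cultures 1 gene was higher and 10 lower with PyMT-N (median -0.74), 5% and 50% of the list against 19.1% and 15.5% of all genes. Among the lower were Umps at -2.03 ± 0.27 (adjusted p = 3.71e-05), Adsl at -1.40 ± 0.21 (adjusted p = 1.16e-04) and Rrm1 at -1.32 ± 0.23 (adjusted p = 3.27e-04). The one higher gene, Prps2, at 0.93 ± 0.29 (adjusted p = 0.0203), was lost with DESeq2 (adjusted p = 0.0556), with either of 2 other scalings and without any of 5 of the co-culture libraries. The summed level of this list was 639 to 668 CPM alone, 945 to 1155 with PyMT-N and 1574 to 1804 with PyMT-M. The proliferation marker sums given above had the same order. Single genes did not all follow it: for example, Prps2 had its highest mean with PyMT-N, and Adss and Ctps2 had theirs alone. The part of proliferation in these levels was not tested.

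Calls among the methionine cycle and glutathione genes were close to the background. Of 11 tested genes of 16, 3 rose and 3 fell with PyMT-N against alone (median 0.14), and 3 rose and 2 fell with PyMT-M (median 0.04). With PyMT-N, 27.3% were higher and 27.3% lower, against 29.4% and 23.6% of all genes, and with PyMT-M 27.3% and 18.2%, against 28.2% and 27.9%. Ahcy, which clears S-adenosylhomocysteine, rose by 2.80 ± 0.45 (adjusted p = 1.06e-04) and 3.02 ± 0.44 (adjusted p = 5.00e-05). Mat2a, which makes S-adenosylmethionine, rose by 0.88 ± 0.21 (adjusted p = 0.00213) and 1.01 ± 0.20 (adjusted p = 7.35e-04). Both subunits of glutamate cysteine ligase, which uses the cysteine that SLC7A11 supplies as cystine, had their highest mean alone, where replicate 3 was again low. Gclc stood at 185 ± 105 alone, 87.7 ± 10.3 with PyMT-M and 48.0 ± 8.24 in the PyMT-N group, and fell by 1.97 ± 0.35 with PyMT-N (adjusted p = 3.18e-04). Gclm stood at 594 ± 264 alone, 99.4 ± 11.0 with PyMT-M and 327 ± 16.7 in the PyMT-N group, and fell by 2.59 ± 0.28 with PyMT-M (adjusted p = 3.40e-06). In replicate 3 alone, Gclc was 68.6, below the PyMT-M libraries, and Gclm was 302, below the PyMT-N libraries, so these groups overlapped. With pan-leukocyte scaling, Gclc with PyMT-M and Gclm with PyMT-N were above alone, at 0.44 and 0.22. Gclm was higher with PyMT-N than with PyMT-M by 1.72 ± 0.27 (adjusted p = 1.59e-04), in a list where 2 genes were higher and 2 lower (median -0.23). Those were 18.2% and 18.2% of the list, against 19.1% and 15.5% of all genes. Cth, the last enzyme of cysteine synthesis from methionine, had 0 counts in all libraries alone and with PyMT-M and stood at 31.6, 19.8 and 18.5 normalised CPM with PyMT-N. It was at least 47.4-fold higher with PyMT-N than alone (adjusted p = 6.33e-05) and at least 104-fold higher than with PyMT-M (adjusted p = 1.57e-05), in the 3 libraries that also held the epithelial markers. Cbs, the enzyme before it, had no count in any library. Mtr, methionine synthase, rose with PyMT-M by 1.58 ± 0.53 (adjusted p = 0.0190) and was lower with PyMT-N than with PyMT-M by -1.40 ± 0.45 (adjusted p = 0.0232). Without replicate 1 of PyMT-M these were 1.06 (adjusted p = 0.0977) and -0.87 (adjusted p = 0.163), and the former was also lost without replicate 1 alone (adjusted p = 0.0795) and the latter without replicate 2 (adjusted p = 0.0501) or 3 (adjusted p = 0.133) of PyMT-N.

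Of the amino acid synthesis and branched-chain breakdown list, 20 of 25 genes were tested, and 6 rose and 2 fell with PyMT-N against alone (median 0.50), against 10 and 1 with PyMT-M (median 1.03). With PyMT-N the share higher, 30%, was near the 29.4% of all genes and the share lower, 10%, was under their 23.6%. With PyMT-M the share called, 55%, was near the 56.1% of all genes, with 50% higher and 5% lower. Gpt2, the mitochondrial alanine transaminase, rose by 3.78 ± 0.57 (adjusted p = 4.44e-05) and 5.26 ± 0.51 (adjusted p = 7.70e-07). Aldh18a1, the first step of proline synthesis, rose by 2.30 ± 0.37 (adjusted p = 1.14e-04) and 3.08 ± 0.37 (adjusted p = 7.84e-06), and Got1, the cytosolic aspartate transaminase, by 1.65 ± 0.28 (adjusted p = 1.80e-04) and 1.88 ± 0.28 (adjusted p = 5.69e-05). Glud1, glutamate dehydrogenase, fell by 0.87 ± 0.14 with PyMT-N (adjusted p = 1.31e-04) and Asl, argininosuccinate lyase, fell by 1.39 ± 0.32 with PyMT-M (adjusted p = 0.00192), at 0.24 and 0.14 with pan-leukocyte scaling. Between the co-cultures 7 were called, each of them lower with PyMT-N (median -0.24). The share called, 35%, was near the 34.6% of all genes, while the share lower was 35% against 15.5%. Among the 7 were Glud1 at -1.16 ± 0.14 (adjusted p = 1.55e-05), Gpt2 at -1.48 ± 0.29 (adjusted p = 7.77e-04) and Bcat2 at -1.38 ± 0.30 (adjusted p = 0.00199). Bcat2 was thus lower with PyMT-N together with Bcat1. Bckdhb, a subunit of the branched-chain ketoacid dehydrogenase that acts after BCAT, had 1 count alone, so that it was 39.8-fold higher with PyMT-N (95% counting interval 6.93 to 1594) and 95.7-fold higher with PyMT-M (17.0 to 3796).

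Amino acid transporters were called in both directions. Against alone, the shares called were 76.5% with PyMT-N and 70.6% with PyMT-M, where 53.0% and 56.1% of all genes were called. Of 17 tested genes of 29, 6 rose and 7 fell with PyMT-N against alone (median -0.27), and 6 rose and 6 fell with PyMT-M (median -0.24). The shares higher and lower were 35.3% and 41.2% with PyMT-N, against 29.4% and 23.6% of all genes, and 35.3% and 35.3% with PyMT-M, against 28.2% and 27.9%. Slc7a1, a carrier of cationic amino acids, rose by 2.49 ± 0.27 (adjusted p = 2.54e-06) and 2.77 ± 0.27 (adjusted p = 1.31e-06). Slc7a5, the leucine carrier that shares its heavy chain SLC3A2 with SLC7A11, had the opposite order to Slc7a11, at 6.17 ± 5.61 alone, 205 ± 13.6 with PyMT-M and 59.3 ± 7.01 in the PyMT-N group (normalised CPM, SD, n = 3). It rose by 3.04 ± 0.37 with PyMT-N (adjusted p = 7.14e-06) and by 4.82 ± 0.35 with PyMT-M (adjusted p = 8.37e-08). Slc1a4, a carrier of alanine, serine and cysteine, rose by 5.36 ± 0.60 with PyMT-M (adjusted p = 2.00e-06). With PyMT-N, Slc38a2 fell by 1.00 ± 0.20 (adjusted p = 7.40e-04), Slc36a4 fell by 1.79 ± 0.39 (adjusted p = 0.00146) and Slc38a9 fell by 1.71 ± 0.41 (adjusted p = 0.00263). Slc36a4 fell by 1.95 ± 0.39 with PyMT-M (adjusted p = 6.77e-04). Pan-leukocyte scaling ended all 4 of these calls, with values of 0.09, -0.68 and -0.61 with PyMT-N and -0.42 with PyMT-M. Between the co-cultures 1 was higher and 4 lower with PyMT-N (median -0.16). These were 5.88% and 23.5% of the list, against 19.1% and 15.5% of all genes, and the share called was 29.4% against 34.6%. Lower were Slc7a5 at -1.79 ± 0.25 (adjusted p = 4.58e-05) and Slc1a4 at -1.25 ± 0.31 (adjusted p = 0.00467). Slc38a1 at -0.84 ± 0.30 (adjusted p = 0.0422) lost its call without any of the 6 co-culture libraries. Slc3a2 was higher by 0.66 ± 0.17 (adjusted p = 0.00638), but by 0.45 (adjusted p = 0.0592) when scaled to library totals and by 0.23 (adjusted p = 0.422) with pan-leukocyte scaling.

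Genes of the ATF4 pathway, which is known to drive many of the 10, were also called in both directions. Of 24 tested genes of 25, 11 rose and 4 fell with PyMT-N against alone (median 0.41), and 8 rose and 5 fell with PyMT-M (median 0.22). The shares higher and lower were 45.8% and 16.7% with PyMT-N, against 29.4% and 23.6% of all genes. With PyMT-M they were 33.3% and 20.8%, near the 28.2% and 27.9% of all genes. Atf4 itself stood at 351, 376 and 230 normalised CPM alone, 488, 527 and 630 with PyMT-M, and 484, 413 and 462 with PyMT-N. It rose by 0.77 ± 0.19 with PyMT-M (adjusted p = 0.00318) and by 0.50 ± 0.19 with PyMT-N (adjusted p = 0.0393), a call lost without replicate 3 alone (0.32, adjusted p = 0.0891) or without replicate 1 (0.46, adjusted p = 0.101) or 3 (0.50, adjusted p = 0.0892) of PyMT-N. That call was also lost with the replicate number as a block (adjusted p = 0.0538), with a filter of 50 counts in 3 libraries (adjusted p = 0.0574) and when the model held only the groups compared (adjusted p = 0.0644). The PyMT-N to PyMT-M difference of Atf4 did not pass (adjusted p = 0.280). Of the eIF2 kinases, Eif2ak2 (PKR) rose by 3.19 ± 0.28 with PyMT-N (adjusted p = 2.40e-07) and 2.29 ± 0.28 with PyMT-M (adjusted p = 9.96e-06), whereas Eif2ak3 (PERK) fell by 1.94 ± 0.27 with PyMT-N (adjusted p = 3.11e-05). With PyMT-M, Eif2ak3 was at -0.96 (adjusted p = 0.00523), but at 0.57 with pan-leukocyte scaling. This PyMT-M call was also lost with scaling to library totals (adjusted p = 0.161) and without replicate 2 alone (adjusted p = 0.0504). Eif2s1 rose by 2.55 ± 0.28 (adjusted p = 2.43e-06) and 3.03 ± 0.28 (adjusted p = 7.43e-07). Cebpb, whose protein can pair with ATF4, rose by 2.45 ± 0.26 with PyMT-N (adjusted p = 2.02e-06), and Xpot, a tRNA exporter, rose by 1.93 ± 0.29 with PyMT-M (adjusted p = 6.83e-05).

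Between the co-cultures 11 genes of the ATF4 list were higher and 3 lower with PyMT-N (median 0.45), 45.8% and 12.5% of the list against 19.1% and 15.5% of all genes. The list also holds the eIF2 kinases and the antioxidant response genes Nfe2l2 and Keap1. Of these, Nfe2l2, Keap1 and Eif2ak2 were among the 11. With pan-leukocyte scaling 5 of the 11 higher calls were lost, those of Ddit4 (adjusted p = 0.0683), Eif2ak2 (0.145), Keap1 (0.442), Ppp1r15a (0.196) and Sesn2 (0.0544). Cebpb was higher by 2.16 ± 0.23 (adjusted p = 3.18e-06) and Nupr1, a stress-response regulator, by 2.13 ± 0.31 (adjusted p = 6.79e-05). Nfe2l2 encodes NRF2, the factor that binds antioxidant response elements and is known to drive Slc7a11, Gclm and Gclc. It stood at 830 ± 81.1 alone, 337 ± 42.4 with PyMT-M and 753 ± 123 in the PyMT-N group, with the PyMT-N libraries overlapping those alone. Nfe2l2 was higher with PyMT-N than with PyMT-M by 1.16 ± 0.17 (adjusted p = 7.47e-05) and fell by 1.30 ± 0.17 with PyMT-M against alone (adjusted p = 1.89e-05), though at 0.26 with pan-leukocyte scaling. The part of NRF2 in the levels of Slc7a11, Gclm and Gclc was not tested. Herpud1 was lower with PyMT-N than with PyMT-M by -0.79 ± 0.21 (adjusted p = 0.00836), a call lost without replicate 3 of PyMT-N (-0.66, adjusted p = 0.0617). Stc2, a secreted stress-response protein, had 0 counts alone and with PyMT-M and 7.58 ± 2.11 normalised CPM in the PyMT-N group, at least 16.1-fold higher than alone and at least 35.2-fold higher than with PyMT-M.

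**Figure D4:**
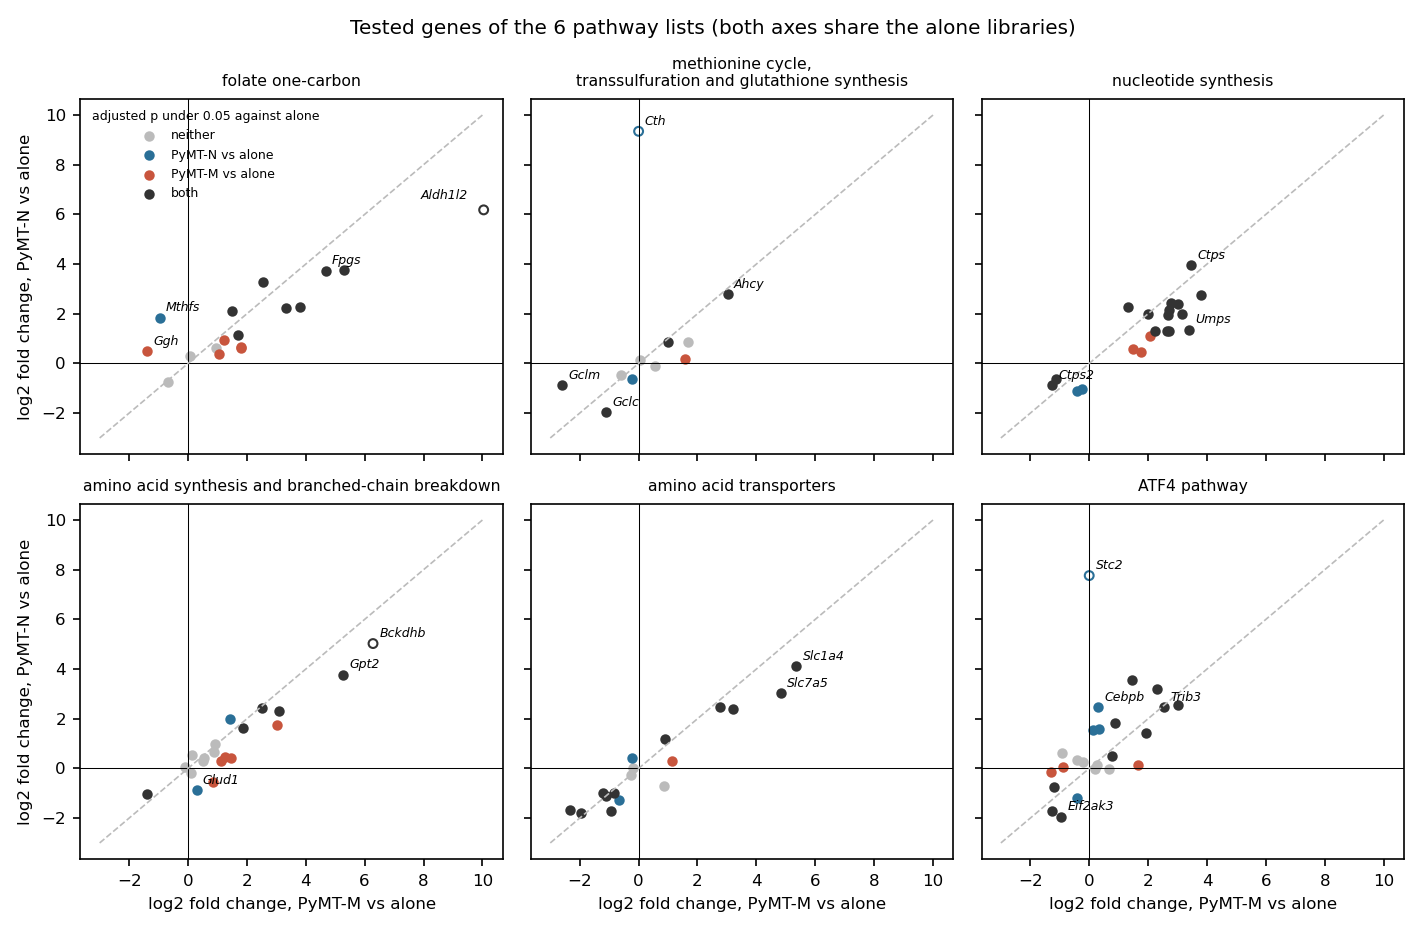
Log2 fold changes against alone of the tested genes of 6 pathway lists, with PyMT-M on the horizontal and PyMT-N on the vertical axis, coloured by the comparison in which a gene passed. The axes share the same 3 libraries alone, the dashed line marks equal values, and hollow circles are genes with 0 to 3 counts in a group, whose fitted values depend on the prior count. Folate and nucleotide genes lie mostly above 0 on both axes, and transporters lie on both sides.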

How the data were processed

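Per the labels' protocols, RNA came from RNeasy Micro columns, and 150 pg of it entered each library, prepared with a QIAseq FX kit for single-cell RNA. The authors deposited raw counts of reads for each Ensembl gene, after alignment with STAR. The submitters' processing notes name GRCm38 and mm10 as the genome builds. Not given in the sources used here are the counting tool, the annotation and whether strand was used. Of 54532 identifiers 54409 had a symbol, and 123 had none. Coordinates and exon lengths came from GENCODE M21 of GRCm38.

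Genes were filtered with filterByExpr (count minimum 10, total minimum 15), leaving 12012, and scaled by TMM. All 9 libraries entered 1 model with a mean per group, and edgeR 4.0.16 (R 4.3.3) gave quasi-likelihood F tests, with Benjamini-Hochberg adjustment over all tested genes and a threshold of 0.05. Dividing a log2 fold change by the square root of its F gave its SE. A floor of 3 counts was 0.573 to 2.26 normalised CPM by library, and it covers counting error only. The script was tested on simulated counts. DESeq2 1.42.0, other scalings and filters, and leaving out each library were alternatives.

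The members and lists were chosen with earlier results of these data known. Of each pathway list and comparison, the named genes were up to 3 of smallest p in the direction with more calls and 1 in the other, plus the partners Slc3a2, Bcat2, Mthfd1, Mthfd2l, Atf4, Slc7a5, Gclc, Mat2a, Cbs and Cth. Aldh1l2, Bckdhb and Stc2 against alone, and values of named genes in other comparisons, were added after their values were seen. For likeness, the 3 genes of highest Pearson r at a mean log2 CPM of at least 4 were named. Marker sums used CPM of the library total.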

Additional observations from a re-analysis of the deposited data

How the results depend on the processing

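Of the member fold changes recomputed under the alternatives, 548 moved by less than the spread between replicates, 51 moved by more and 1 changed sign, Slc7a11 between PyMT-N and alone, at 0.14 with pan-leukocyte scaling. That scaling, which assumes equal pan-leukocyte RNA per library, gave 6892 genes higher and 857 lower with PyMT-N against alone, 7784 and 253 with PyMT-M, and 1408 and 3472 between the co-cultures, and for the pathway lists 81 and 2, 86 and 1, and 10 and 55. Scaling to library totals alone left 1913 genes lower with PyMT-M against alone, 10 of them in the pathway lists. At an adjusted p under 0.01, 1092 genes were lower with PyMT-N than with PyMT-M, 18 of them in the pathway lists. Adding a log2 fold change of at least 1 left 12 pathway genes lower with PyMT-N against alone, and 11 higher and 21 lower between the co-cultures. Leaving out 1 library at a time gave 20 to 42 pathway genes lower with PyMT-N than with PyMT-M, with 21 without replicate 1 and 20 without replicate 3 of PyMT-N, where 33 were lower with all libraries. Same-numbered libraries had correlations of -0.0781 to 0.0285 in their deviations from the group means, and other pairs -0.0618 to 0.0682. No pairing by replicate number was seen, but with 3 libraries per group this cannot exclude a shared mouse or batch. With the replicate number as a block, 3411 genes were higher and 2692 lower with PyMT-N against alone, 3274 and 3243 with PyMT-M, and 2228 and 1739 between the co-cultures. In the other alternatives, counts stayed within 1.5 times the main ones. The cause of these shifts was not tested. Depth limits statements on Bcat1, Aldh1l2, Cth, Stc2 and Bckdhb alone, where a count of 0 allows up to 3 counts.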

Other observations

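The other marker lists gave further values. Of 15 proliferation genes, 13 were called with PyMT-N against alone and 14 with PyMT-M, each of them higher, and 7 were called between the co-cultures, each lower with PyMT-N than with PyMT-M (edgeR, adjusted p under 0.05). The shares called were 86.7%, 93.3% and 46.7%, against 53.0%, 56.1% and 34.6% of all genes. Of 20 pan-leukocyte genes, 1 rose and 16 fell with PyMT-N against alone, and 20 fell with PyMT-M, where 23.6% and 27.9% of all genes fell. The epithelial keratin gene Krt18 had a mean of 332 normalised CPM with PyMT-N, against 0.697 alone and 0.127 with PyMT-M. The sum of 10 B cell markers was 479 to 1051 CPM alone, 91.8 to 147 with PyMT-M and 17.5 to 18.5 with PyMT-N, and the sum of 10 eosinophil and basophil markers was 284 to 393, 10.1 to 12.1 and 19.7 to 23.0, so both were highest in the neutrophils kept alone.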
